A study of Homo sapiens with 9 samples.

Results

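The genes described here regulate mitochondrial dynamics and biogenesis: the mitochondrial fusion genes MFN1, MFN2 and OPA1, the fission genes DNM1L, FIS1, MFF and MIEF1, and the biogenesis genes PPARGC1A, TFAM and NRF1. They are the entries of the deposited gene table that carry these symbols, 10 of 20323 genes. All 10 passed the filter on low counts, which left 13153 genes for testing. MIEF1 stands on 2 entries, of which the one with the larger summed count was used. Its other entry, ENSG00000285025 (chromosome 22, 39504231 to 39504443), held at most 0.62 estimated counts in any library. All cells were HKC-8, an established line of human kidney proximal tubular epithelium grown in culture. Of the 9 libraries, 3 came from control cells transfected with the empty vector pcDNA3, 3 from cells transfected with a plasmid for the secreted ligand Wnt1 (Wnt1 libraries), and 3 from cells given the same Wnt1 plasmid and also KP6, a peptide derived from the kidney protein Klotho (Wnt1_KP6 libraries). The sources used here give no dose, no time, no share of cells that took up the plasmid, and no empty-vector cells with KP6, so KP6 can be compared with its absence only in Wnt1 plasmid cells. They also do not say that the 3 replicates of a group were separate cultures, so p-values measure the spread between these libraries, which may be technical.

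Mitochondria form a network that is continually joined and divided. Joining needs mitofusins on the outer membrane and OPA1 on the inner membrane. Division needs the cytosolic GTPase encoded by DNM1L, which adaptors on the outer membrane bring to the organelle. New mitochondrial mass depends on the coactivator PGC-1alpha, encoded by PPARGC1A, which works with nuclear respiratory factors, and on TFAM, which packages and transcribes mitochondrial DNA. Proximal tubule cells rely on mitochondrial respiration for reabsorption, and all 3 processes have been studied in kidney injury. Transcript levels do not show the shape, the mass or the activity of mitochondria, and much of the control of the fusion and fission proteins acts after translation.

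Total estimated counts were 21199078 to 27507623 per library. The libraries numbered 1 stood apart from those numbered 2 and 3 in every group: the first principal component of the log2 CPM values (counts scaled to library size with edgeR's TMM factors) held 38.1% of the variance and placed the libraries numbered 1 between -38.82 and -37.36 and all others between 9.21 and 25.07. The share of counts from mitochondrially encoded genes was 5.18% to 5.72% in the libraries numbered 1 and 7.01% to 7.97% in the others. Each count of called genes is therefore also given from replicates 2 and 3 only. WNT1 was at 0 estimated counts in all 3 control and all 3 Wnt1 libraries and at 1, 2 and 0 counts in the Wnt1_KP6 libraries. A count of 0 allows up to 3 counts, which is 0.109 to 0.142 CPM across the libraries, counting error only. The table thus gives no check of the plasmid, and the groups are named by their labels. ATF3, a transcription factor in the study's title, was at 18.2, 7.84 and 8.78 CPM in control replicates 1, 2 and 3. It was at 30.3, 93.9 and 93.4 CPM in the Wnt1 libraries and at 25.4, 668 and 664 CPM in the Wnt1_KP6 libraries. Replicate 1 was thus lower with KP6 than with the Wnt1 plasmid alone, while replicates 2 and 3 were higher. Of 12 proximal tubule markers, GGT1 and MME alone reached a mean of 1 CPM, with summed marker levels of 196 to 242 CPM, and LRP2, SLC22A6 and SLC22A8 were at under 3 counts in every library. Of 8 markers of kidney epithelium 6 reached it, PAX8 among them at 482 to 810 CPM. CDH1 (0 to 0.141 CPM) and PAX2 (0 to 0.319 CPM) did not. Muscle markers, which matter here because muscle is a site of high PPARGC1A, were absent or near 0, with 0 of 3 at a mean of 1 CPM. Endothelial and distal nephron markers gave 0 of 4 each, fibroblast markers 1 of 5 (COL1A1) and leukocyte markers 1 of 4 (CD68, with PTPRC and CD3E at 0).

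None of the 10 genes passed the test in any comparison, by a quasi-likelihood test in edgeR, Benjamini-Hochberg adjusted over all 13153 genes, at a threshold of 0.05. OPA1, the inner-membrane fusion GTPase, came closest: it was lower in the Wnt1 and in the Wnt1_KP6 libraries than in every control library, at an unadjusted p of 0.0217 and 0.0423 and an adjusted p of 0.345 and 0.297. DNM1L, the fission GTPase, was lower in the same 6 libraries by a smaller amount, and NRF1, a transcription factor for respiratory chain genes, was slightly higher. The other 7 genes overlapped between the groups in every comparison, except that the Wnt1 libraries lay below the controls for PPARGC1A in CPM. PPARGC1A differed by replicate: with KP6 it was higher in replicates 2 and 3 and lower in replicate 1.

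The sequences just upstream of OPA1 and DNM1L are shown because these genes were the pair that lay below the controls in both Wnt1 plasmid groups. They are taken from the RefSeq promoter table (build GRCh38.p14), both on the + strand, and stop before the first annotated exon in GENCODE 29: chr3:193592958-193593143 for OPA1 and chr12:32679051-32679199 for DNM1L. Capitals mark the nuclear respiratory factor core.
OPA1: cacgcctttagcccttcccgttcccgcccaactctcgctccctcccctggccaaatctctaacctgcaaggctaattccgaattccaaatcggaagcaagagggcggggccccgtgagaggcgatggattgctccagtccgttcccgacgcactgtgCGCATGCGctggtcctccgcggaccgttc
DNM1L: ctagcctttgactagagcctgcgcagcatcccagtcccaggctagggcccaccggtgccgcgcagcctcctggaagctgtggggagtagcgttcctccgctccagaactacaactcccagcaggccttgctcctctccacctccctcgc
Of the 10 genes, 9 have an entry in that table, and NRF1 does not. The core CGCATGCG, which reads the same on both strands, lies 93 bases before the RefSeq start of OPA1 and in none of the other 8 genes' windows of 250 upstream bases. It occurs in 1.73% of the 35116 promoters of the table. The windows of MFN2 and TFAM start within an annotated exon of the gene in GENCODE 29, and those of FIS1 and MIEF1 within its bounds. For these genes no sequence upstream of the annotated gene was searched. The E-box CACGTG, also a palindrome and held by 6.34% of promoters, was found 123 bases before a PPARGC1A start, in the window chr4:24472906-24473155 on the - strand, which lies outside the GENCODE 29 bounds of that gene (23755041 to 23904089). The cyclic AMP response element TGACGTCA (1.65% of promoters), the AP-1 element TGAGTCA or TGACTCA (4.2%) and the estrogen-related receptor element AAGGTCA or TGACCTT (3.44%) gave no match in the 9 genes. These are matches of letters, not sites of binding.

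The levels of the 10 genes per length are best compared as FPKM, the fragment counts that the authors scaled to gene length and library size. MFN2 had the highest level, with a mean of 53.4 FPKM over the 9 libraries, and its lowest library (45.9 FPKM) lay above every library of every other gene. Below it came DNM1L (mean 31.1 FPKM), FIS1 (30.1 FPKM), MFF (28.1 FPKM), OPA1 (25.4 FPKM), TFAM (24.6 FPKM) and MFN1 (21.7 FPKM). The ranges of neighbours in this order overlapped, so the order of neighbours is not beyond the spread between libraries. Genes farther apart could keep their order in every library: the ratio of OPA1 to DNM1L ran from 0.741 to 0.897. MIEF1 (10.8 to 15.3 FPKM), NRF1 (5.82 to 7.29 FPKM) and PPARGC1A (2.2 to 2.77 FPKM) each formed a step of their own without overlap. The median tested gene had a mean of 10.4 FPKM, so NRF1 and PPARGC1A lay below it and the other 8 above. The levels varied little: the SD of log2 CPM over the 9 libraries ran from 0.07 (MFF) to 0.23 (PPARGC1A), where the median tested gene had 0.22.

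**Figure D1:**
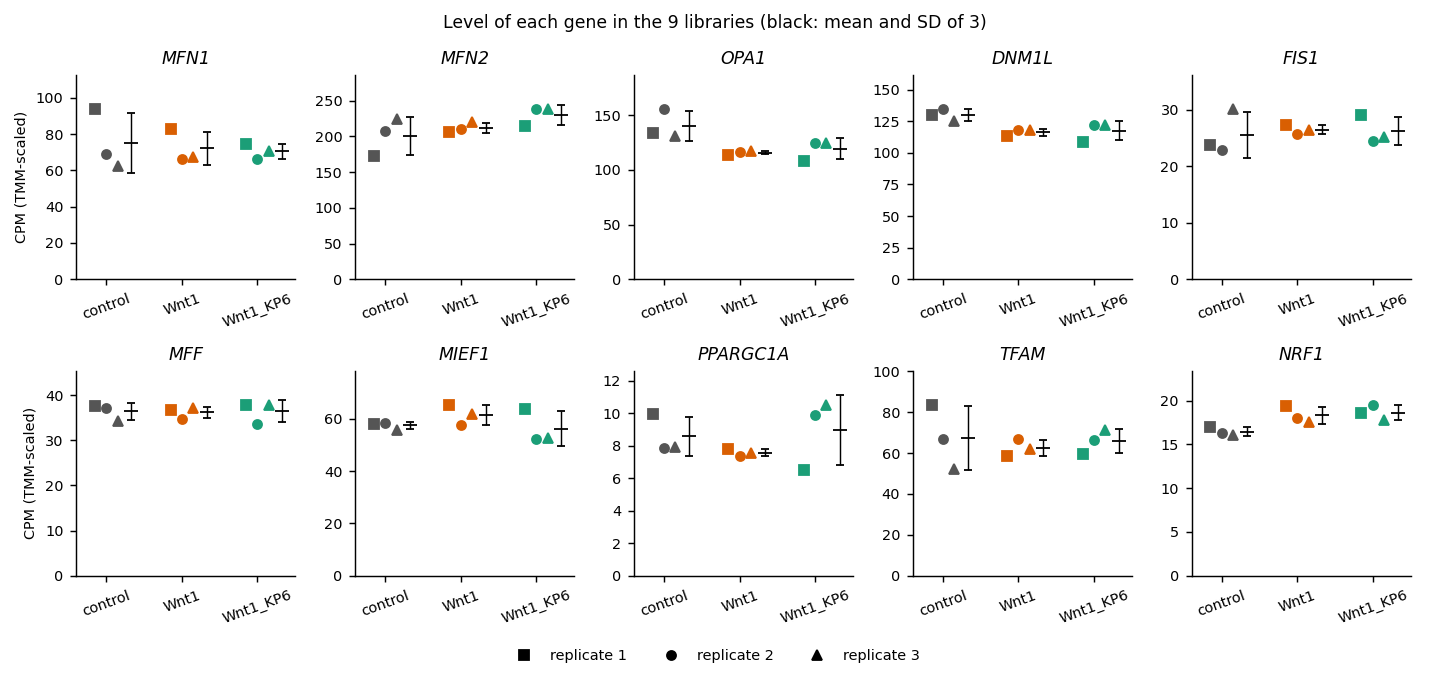
Level of each of the 10 genes in CPM (vertical axes, linear from 0) in the 3 control, 3 Wnt1 and 3 Wnt1_KP6 libraries; the symbol shape gives the replicate number and the black bar the mean and SD of 3. OPA1 and DNM1L lie lower in all 6 Wnt1 plasmid libraries than in the controls, and PPARGC1A in the Wnt1_KP6 group spans 6.53 to 10.5 CPM.

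MFN1 and MFN2 encode the mitofusins, the outer-membrane GTPases that tether and fuse neighbouring mitochondria. MFN1 (ENSG00000171109, chromosome 3, 179347692 to 179394931) was at 94.1, 69 and 62.5 CPM in control replicates 1, 2 and 3, at 82.9, 66.4 and 67.3 CPM in the Wnt1 libraries, and at 74.5, 66.5 and 70.6 CPM in the Wnt1_KP6 libraries. In each group replicate 1 was the highest, and the groups overlapped. Its estimated counts were fractional in all 9 libraries, so part of its reads were shared out between it and other genes in the authors' estimate. The log2 fold change was -0.06 ± 0.16 (SE) for Wnt1 against control, -0.03 ± 0.16 for Wnt1_KP6 against Wnt1 and -0.09 ± 0.16 for Wnt1_KP6 against control. These had edgeR adjusted p-values of 0.936, 1 and 0.843.

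MFN2, which also tethers mitochondria to the endoplasmic reticulum (ENSG00000116688, chromosome 1, 11980181 to 12013514), was at 172, 207 and 224 CPM in the controls, 206, 211 and 220 CPM in the Wnt1 libraries and 214, 239 and 238 CPM in the Wnt1_KP6 libraries. Control replicate 1 was the lowest of the 9 libraries, and the groups overlapped. Its differences did not pass the test, at log2 0.08 ± 0.11 (SE, edgeR adjusted p 0.854) for Wnt1 against control and 0.12 ± 0.11 (adjusted p 1) for Wnt1_KP6 against Wnt1. Against control, Wnt1_KP6 gave 0.20 ± 0.11 (edgeR adjusted p 0.431), with a 95% interval from -0.05 to 0.44. By replicate number the difference was 0.31, 0.21 and 0.09.

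The ratio of MFN2 to MFN1 in FPKM was 1.63, 2.58 and 2.91 in control replicates 1, 2 and 3. It was 2.1, 2.73 and 2.87 in the Wnt1 libraries and 2.36, 2.9 and 2.54 in the Wnt1_KP6 libraries. The lowest ratio of each group was thus in replicate 1, where the share of mitochondrially encoded counts was also lowest; the part of this in the ratio was not tested. Group means were 2.37 ± 0.667 (SD, n = 3), 2.57 ± 0.41 and 2.6 ± 0.277, which lie within each other's spread.

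**Figure D2:**
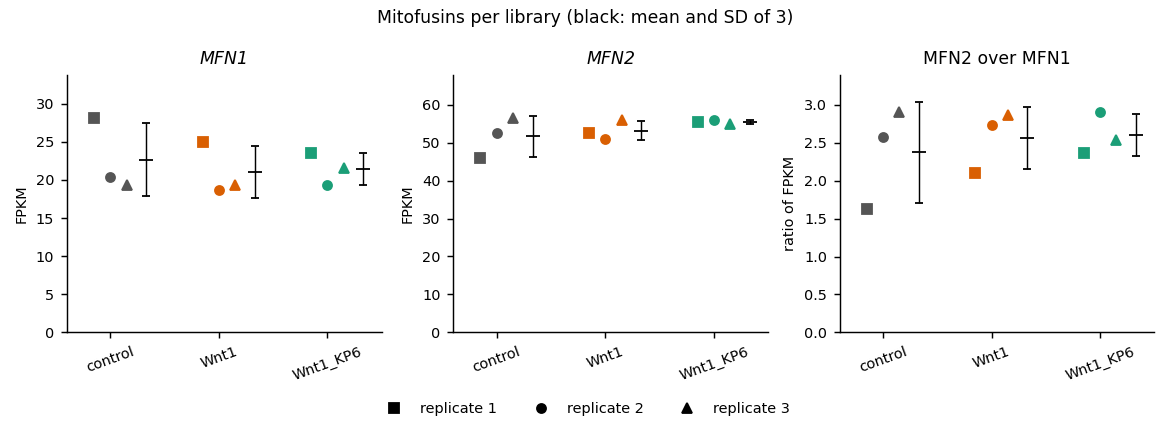
FPKM of MFN1 and of MFN2 and the ratio of MFN2 to MFN1 in the 9 libraries (linear axes from 0), by group and replicate number, with the mean and SD of 3 in black. The ratio is lowest in replicate 1 in each group, at 1.63, 2.1 and 2.36.

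OPA1 fuses the inner membrane and holds the cristae in shape (ENSG00000198836, chromosome 3, 193593144 to 193697823). It was at 134, 156 and 131 CPM in the controls, from 3392 to 4254 estimated counts. The Wnt1 libraries had 114, 116 and 117 CPM and the Wnt1_KP6 libraries 108, 125 and 125 CPM. All 6 Wnt1 plasmid libraries, with or without KP6, lay below the lowest empty-vector control, and control replicate 2 was the highest of the 9. The same held in FPKM, with 28.6 ± 3.02 (SD, n = 3) in the controls, 23.6 ± 1.44 in the Wnt1 libraries and 23.8 ± 1.87 in the Wnt1_KP6 libraries. The log2 fold change of Wnt1 against control was -0.28 ± 0.10 (SE), a 95% interval of -0.50 to -0.05 or a ratio of 0.71 to 0.97, with an edgeR adjusted p of 0.345. Per replicate pair it was -0.24, -0.42 and -0.16. For Wnt1_KP6 against control it was -0.24 ± 0.10 (interval -0.46 to -0.01, edgeR adjusted p 0.297), and per pair -0.32, -0.32 and -0.07. Adding KP6 to the Wnt1 plasmid gave 0.04 ± 0.10 (interval -0.19 to 0.27, edgeR adjusted p 1).

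With replicates 2 and 3 only, OPA1 passed the test for Wnt1 against control and was lower by log2 -0.29 ± 0.08 (edgeR adjusted p 0.0125). It did not pass for Wnt1_KP6 against control, at -0.20 ± 0.08 (edgeR adjusted p 0.0568). Control replicate 2 carries part of the difference: without it, the values were -0.19 (adjusted p 0.959) and -0.15 (adjusted p 0.731) in edgeR. Part of the OPA1 exons, 2.3% of their bases, is shared with OPA1-AS1 on the other strand, and since the kit is not stated to keep strand these reads cannot be told apart. Exon bases are also shared with other genes for DNM1L (2.77%) and MFF (0.78%) on the other strand. On the same strand they are shared for MIEF1 (2.82%), whose second entry lies within its own coordinates, and for NRF1 (2.72%). In bulk RNA, fewer cells that express a gene and less of its RNA per cell cannot be told apart.

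DNM1L encodes DRP1, the GTPase that constricts and cuts mitochondria (ENSG00000087470, chromosome 12, 32679200 to 32745650). It was at 130, 135 and 125 CPM in the controls, 113, 118 and 118 CPM in the Wnt1 libraries and 109, 122 and 122 CPM in the Wnt1_KP6 libraries. As for OPA1, no Wnt1 plasmid library reached the lowest control, on either scale. The differences from control were -0.16 ± 0.08 (SE, 95% interval -0.35 to 0.02, edgeR adjusted p 0.507) for Wnt1 and -0.15 ± 0.08 (interval -0.34 to 0.04, adjusted p 0.426) for Wnt1_KP6. With KP6 against Wnt1 alone the value was 0.01 ± 0.08 (edgeR adjusted p 1).

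FIS1, MFF and MIEF1 encode outer-membrane adaptors; MFF and MIEF1 are known to recruit DRP1, and FIS1 was the first proposed to. FIS1 (ENSG00000214253, chromosome 7, 101239458 to 101252316) was at 23.7, 22.8 and 30.2 CPM in the controls. It was at 27.3, 25.7 and 26.5 CPM in the Wnt1 libraries and 29, 24.4 and 25.2 CPM in the Wnt1_KP6 libraries. The controls spanned all other values. MFF (ENSG00000168958, chromosome 2, 227325151 to 227357836) was the steadiest of the 10 genes, at 37.7, 37.2 and 34.3 CPM in the controls, 36.6, 34.8 and 37.1 CPM in the Wnt1 libraries and 37.8, 33.6 and 37.8 CPM in the Wnt1_KP6 libraries, so that its highest library was 1.13 times its lowest. MIEF1 (ENSG00000100335, chromosome 22, 39499432 to 39518132) was at 58.2, 58.5 and 55.8 CPM, then 65.3, 57.8 and 61.7 CPM, then 63.9, 52.3 and 52.6 CPM in the same order of groups. Within the Wnt1_KP6 group its replicate 1 was the high one, and all groups overlapped.

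Of these 3 adaptors the farthest from 0 was MIEF1 for Wnt1_KP6 against Wnt1, at log2 -0.13 ± 0.10 (SE, 95% interval -0.36 to 0.10, edgeR adjusted p 1). By replicate number the difference was -0.03, -0.14 and -0.23. FIS1 gave 0.05 ± 0.13 for Wnt1 against control, and MFF gave -0.01 ± 0.09, with edgeR adjusted p-values of 0.933 and 0.984. Their 95% intervals, -0.24 to 0.34 and -0.21 to 0.19, bound the size of change that these libraries allow.

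Set against DNM1L, the summed FPKM of the 3 fusion genes was 2.94, 2.95 and 3.24 times the DNM1L level in the controls. The ratio was 3.34, 3.09 and 3.25 in the Wnt1 libraries and 3.67, 3.42 and 3.31 in the Wnt1_KP6 libraries. The Wnt1_KP6 libraries all lay above the controls, at the narrowest by 3.31 against 3.24, while the Wnt1 libraries overlapped with both. How often such ratios of other genes do not overlap was not computed. OPA1 alone over DNM1L overlapped between all groups. Its ratio was 0.843 ± 0.0701 (SD, n = 3) in the controls, 0.779 ± 0.0343 in the Wnt1 libraries and 0.819 ± 0.0441 in the Wnt1_KP6 libraries. The fusion sum itself was 103 ± 2.49 FPKM (SD, n = 3) in the controls, 97.8 ± 3.56 in the Wnt1 libraries and 101 ± 0.284 in the Wnt1_KP6 libraries, and DNM1L was 33.9 ± 1.8, 30.3 ± 0.528 and 29.1 ± 1.46 FPKM. Neither Wnt1 plasmid group had a mean fusion sum above that of the controls. The summed adaptors over DNM1L overlapped between all groups, at 2.13 ± 0.177, 2.39 ± 0.177 and 2.38 ± 0.459.

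PPARGC1A encodes PGC-1alpha, the coactivator that drives transcription of genes for mitochondrial biogenesis (ENSG00000109819, chromosome 4, 23755041 to 23904089). It was the least abundant of the 10 genes, with 155 to 283 estimated counts per library. The controls had 9.95, 7.88 and 7.9 CPM, the Wnt1 libraries 7.8, 7.36 and 7.55 CPM, and the Wnt1_KP6 libraries 6.53, 9.9 and 10.5 CPM. Every Wnt1 library was below every control, though only from 7.8 to 7.88 CPM at the narrowest, and the Wnt1_KP6 group held both the lowest and the highest of the 9 libraries. For Wnt1 against control the log2 fold change was -0.18 ± 0.19 (SE, edgeR adjusted p 0.796). For Wnt1_KP6 against Wnt1 it was 0.24 ± 0.19 (95% interval -0.19 to 0.67, edgeR adjusted p 1), made of -0.25 in replicate 1, 0.42 in replicate 2 and 0.47 in replicate 3. For Wnt1_KP6 against control it was 0.06 ± 0.19 (edgeR adjusted p 0.919), with -0.60, 0.33 and 0.40 in the 3 pairs.

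In replicates 2 and 3 only, PPARGC1A passed the test in both comparisons that involve KP6. It was higher by log2 0.45 ± 0.13 than in the Wnt1 libraries (edgeR adjusted p 0.0457) and by 0.37 ± 0.12 than in the controls (edgeR adjusted p 0.0313). Without Wnt1_KP6 replicate 1 alone, the values were 0.43 (edgeR adjusted p 0.341) and 0.25 (edgeR adjusted p 0.393). The deposited FPKM values showed less of this: 2.77, 2.2 and 2.26 FPKM in the controls, 2.2, 2.35 and 2.59 FPKM in the Wnt1 libraries, and 2.44, 2.71 and 2.52 FPKM in the Wnt1_KP6 libraries. On that scale Wnt1 replicate 3 lay above Wnt1_KP6 replicate 3, and the Wnt1 and control groups overlapped. A limma fit of log2(FPKM + 1) over all 9 libraries gave 0.07 for Wnt1_KP6 against Wnt1 (adjusted p 1) and 0.06 against control (adjusted p 0.835).

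The 2 scales differ by the transcript length behind the FPKM, which count over FPKM implies, and this moved between libraries. For PPARGC1A this implied length, relative to its own mean, was 1.09, 1.06 and 1.03 in the controls, 1.06, 0.92 and 0.87 in the Wnt1 libraries and 0.80, 1.02 and 1.15 in the Wnt1_KP6 libraries. Its highest value was 1.44 times its lowest, percentile 96 of 10214 genes, where the median gene had 1.08. TFAM followed with 1.26, and the other 8 genes had 1.03 to 1.15. GENCODE 29 lists 18 transcripts of PPARGC1A, and the files do not say to which of them its reads were assigned.

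**Figure D3:**
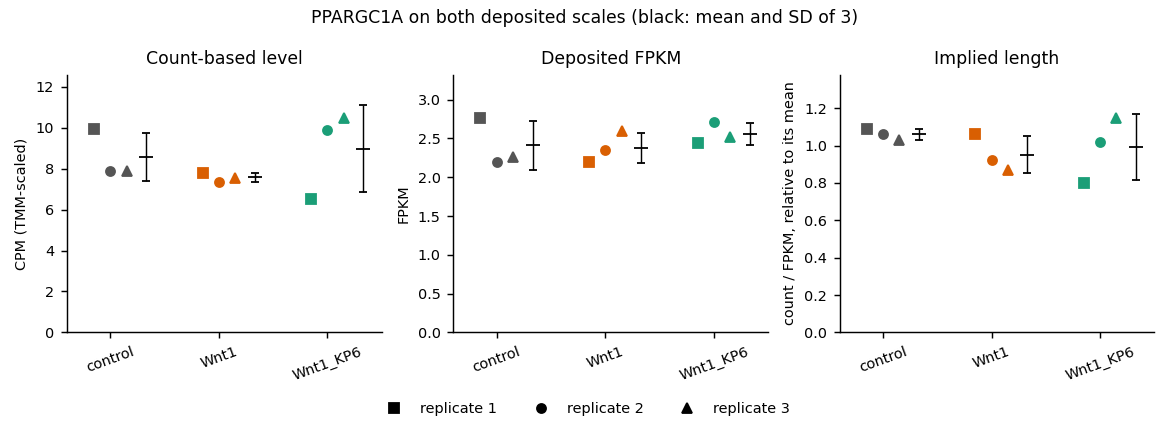
PPARGC1A in the 9 libraries as CPM from the estimated counts, as deposited FPKM, and as the length implied by count over FPKM relative to its mean (linear axes from 0; mean and SD of 3 in black). With KP6 the CPM of replicates 2 and 3 is 9.9 and 10.5, while the FPKM of all Wnt1_KP6 libraries lies between 2.44 and 2.71.

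TFAM packages mitochondrial DNA and starts its transcription (ENSG00000108064, chromosome 10, 58385022 to 58399221). Its level was 83.5, 66.7 and 52.3 CPM in the controls, 58.7, 66.7 and 62.1 CPM in the Wnt1 libraries and 59.5, 66.6 and 71.4 CPM in the Wnt1_KP6 libraries. The 3 controls alone spanned every other library. Differences between groups were small beside this spread, from -0.11 ± 0.16 for Wnt1 against control to 0.07 ± 0.16 for Wnt1_KP6 against Wnt1 (SE, edgeR adjusted p 0.862 and 1). Against control, Wnt1_KP6 gave -0.04 ± 0.16 (edgeR adjusted p 0.946).

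NRF1 encodes nuclear respiratory factor 1, which binds the promoters of many respiratory chain genes and of TFAM; it is not NRF2, the antioxidant factor (ENSG00000106459, chromosome 7, 129611714 to 129757082). The controls were at 17, 16.3 and 16.1 CPM, the Wnt1 libraries at 19.4, 18 and 17.6 CPM and the Wnt1_KP6 libraries at 18.6, 19.5 and 17.8 CPM. Each Wnt1 plasmid library lay above the highest control, also in FPKM. The difference was log2 0.16 ± 0.09 (SE, 95% interval -0.05 to 0.37, edgeR adjusted p 0.571) for Wnt1 and 0.18 ± 0.09 (interval -0.03 to 0.39, edgeR adjusted p 0.389) for Wnt1_KP6 against control. KP6 against Wnt1 alone gave 0.02 ± 0.09 (edgeR adjusted p 1).

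For Wnt1 against control, 0 of the 10 genes passed the edgeR test, where 0.122% of all 13153 genes did (16 genes; 95 with the replicate number as a block). At an unadjusted p under 0.05 stood 1 of the 10, OPA1, against 11.2% of all genes. Without overlap between libraries, 3 of the 10 were lower (OPA1, DNM1L and PPARGC1A), beside 7.87% of all genes, and 1 was higher (NRF1), beside 8.67%. The median log2 fold change of the 10 was -0.03 (all genes -0.00) and the median size 0.11 (all genes 0.15). With replicates 2 and 3 only, 1 of 10 passed, OPA1, where 31.6% of 13041 genes did.

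Adding KP6 to the Wnt1 plasmid gave 0 of 10 passing in edgeR and 0% of all genes (0 of 13153), with 0 of 10 and 2.76% of all genes at an unadjusted p under 0.05. DESeq2 called 17 genes and none of the 10. No member lay wholly above or below its Wnt1 libraries, beside 2.87% of all genes higher and 2.94% lower. The median log2 fold change was 0.02 (all genes 0.00) and the median size 0.04 (all genes 0.08). Replicates 2 and 3 only gave 1 of 10, PPARGC1A, where 8.62% of genes passed.

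Wnt1_KP6 against control shares its control libraries with the first comparison. Here 0 of 10 passed in edgeR, where 0.228% of all genes did (30 genes; 149 with the replicate number as a block), and 1 of 10, OPA1, stood at an unadjusted p under 0.05, against 15.8% of all genes. OPA1 and DNM1L were lower without overlap, 2 of 10 beside 7.8% of all genes, and NRF1 higher, 1 of 10 beside 8.74%. The median log2 fold change was -0.02 (all genes -0.01) and the median size 0.08 (all genes 0.17). In replicates 2 and 3 only, 1 of 10 passed, PPARGC1A, where 40.6% of genes did. Across the 3 comparisons the 95% interval of each gene's ratio lay between 0.65 and 1.60, and without PPARGC1A between 0.71 and 1.36.

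**Figure D4:**
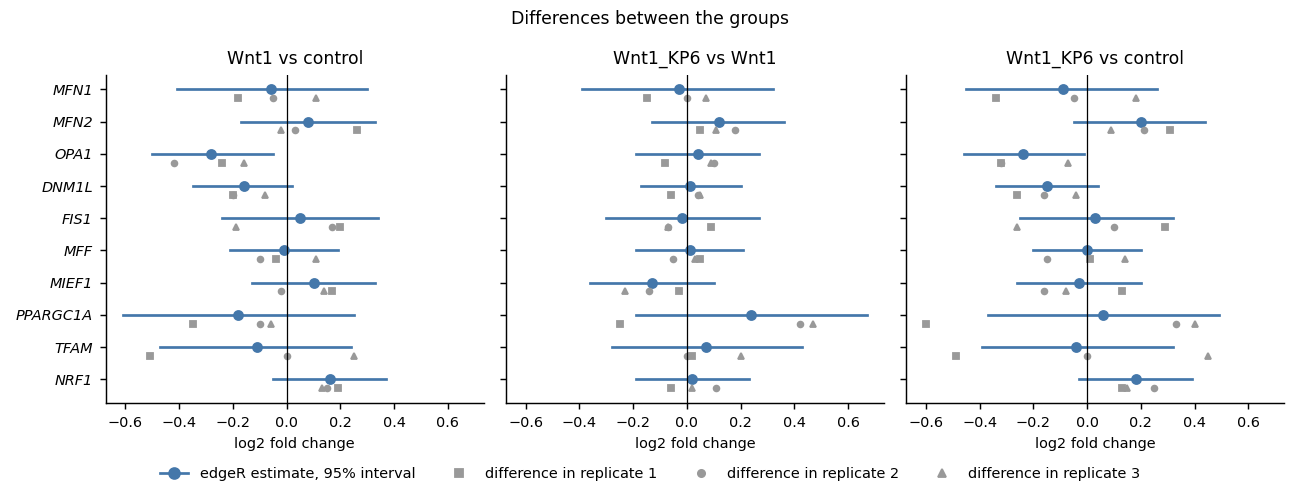
log2 fold change of each of the 10 genes in the 3 comparisons (horizontal axes), as the edgeR estimate with its 95% interval in blue and as the difference within each replicate number in grey. Most intervals cross 0; those of OPA1 against control, -0.50 to -0.05 and -0.46 to -0.01, do not, at adjusted p-values of 0.345 and 0.297.

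Genes that work beside these 10 were read from 5 lists of 121 genes in all, of which 119 were tested and 2, ESRRB and PERM1, were below the filter. None of the 119 passed the edgeR test in any comparison with all 9 libraries. With replicates 2 and 3 only, 26 of 119 (21.8%) passed for Wnt1 against control, 18 higher and 8 lower, beside 31.6% of all genes; 4 (3.36%) passed for Wnt1_KP6 against Wnt1, all higher, beside 8.62%; and 47 (39.5%) for Wnt1_KP6 against control, 25 higher and 22 lower, beside 40.6%. Of the 32 other biogenesis regulators, 11 (10 higher), 4 (4 higher) and 20 (15 higher) passed there, in the same order of comparisons. All 4 that passed for Wnt1_KP6 against Wnt1 were of this list. The other fusion and inner-membrane genes gave 4, 0 and 7 of 22, and the other fission genes 5, 0 and 4 of 24. The mitochondrially encoded mRNAs gave 2, 0 and 2 of 13. Genes of mitochondrial DNA upkeep and transcription gave 4, 0 and 14 of 28, and 10 of those 14 were lower. With all 9 libraries, 11.2%, 2.76% and 15.8% of all genes stood at an unadjusted p under 0.05 in the 3 comparisons. There stood 2, 0 and 4 of the 22 other fusion and inner-membrane genes in the same order (Wnt1 against control, Wnt1_KP6 against Wnt1, Wnt1_KP6 against control), and 0, 0 and 0 of the 24 other fission genes. The counts were 3, 2 and 5 of 32 other biogenesis regulators, 2, 1 and 7 of 28 genes of mitochondrial DNA upkeep and transcription, and 0, 0 and 0 of the 13 mRNAs encoded in mitochondria. The list medians lay between -0.10 and 0.08 on the log2 scale.

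Of the 22 other fusion and inner-membrane genes, MICOS10 and CHCHD3 had the smallest p for Wnt1 against control. Both encode parts of the MICOS complex, which builds cristae junctions. MICOS10, a MICOS subunit, was at 17.3, 20.6 and 20.3 CPM in the controls, 15.1, 15 and 14.6 CPM in the Wnt1 libraries and 15.2, 15.2 and 16.5 CPM in the Wnt1_KP6 libraries. CHCHD3, another subunit, was at 95.1, 93.5 and 89.2 CPM, then 109, 109 and 111 CPM, then 102, 112 and 112 CPM. Neither gene's Wnt1 plasmid libraries overlapped its controls, and they lay on opposite sides. For Wnt1 against control MICOS10 gave log2 -0.38 ± 0.10 and CHCHD3 0.24 ± 0.08 (SE, edgeR adjusted p 0.234 and 0.286). The other listed MICOS subunits lay between -0.10 and 0.10 in that comparison. In replicates 2 and 3 only MICOS10 and CHCHD3 both passed, at -0.46 (edgeR adjusted p 0.00336) and 0.27 (edgeR adjusted p 0.00757). There 4 of the 22 listed genes passed (18.2%), beside 31.6% of all genes.

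Among the other biogenesis regulators MEF2D, a transcription factor known to act on the PPARGC1A promoter in muscle, had the smallest p for Wnt1_KP6 against control. It was at 39.7, 44.7 and 55 CPM in the controls, 69.2, 60.2 and 63.2 CPM in the Wnt1 libraries and 67.1, 117 and 102 CPM in the Wnt1_KP6 libraries. For Wnt1_KP6 against control this was log2 1.04 ± 0.20 (SE, edgeR adjusted p 0.0691), and 1.13 in replicates 2 and 3 only (adjusted p 1.03e-06). SIRT1, a deacetylase that activates PGC-1alpha, was at 28.7, 22.2 and 18.3 CPM in the controls, 21.8, 22.5 and 24.6 CPM in the Wnt1 libraries and 22.9, 37.4 and 39 CPM in the Wnt1_KP6 libraries. For both genes, as for PPARGC1A, replicates 2 and 3 were the high ones with KP6. Against Wnt1 alone the log2 differences were 0.57 ± 0.20 and 0.53 ± 0.22 (edgeR adjusted p 1 each), and in replicates 2 and 3 only 0.82 and 0.69 (adjusted p 6.68e-05 and 0.000417). There 4 of the 32 tested regulators passed (12.5%), beside 8.62% of all genes. MEF2D and SIRT1 had the smallest p of the 32 in this comparison. With all 9 libraries the median of the 32 was -0.01, and 15 lay above 0. Replicate 1 stood apart over the whole table, and a link between these genes and PPARGC1A was not tested. FLCN, which restrains biogenesis through AMP-activated kinase and its partners, stands on more than 1 entry of the table, of which the one with the largest summed count was used. It gave 0.58 ± 0.20 for Wnt1 against control (edgeR adjusted p 0.32), with 0.03 in replicate 1 and 1.05 and 0.81 in the others, and passed in replicates 2 and 3 only at 0.93 (adjusted p 4.31e-06).

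Beside TFAM, the mitochondrial protease LONP1, which degrades TFAM, was at 165 ± 15.2 CPM (SD, n = 3) in the controls, 203 ± 6.07 in the Wnt1 libraries and 204 ± 4.91 in the Wnt1_KP6 libraries. Its log2 fold change against control was 0.30 ± 0.09 and 0.31 ± 0.09 (SE, edgeR adjusted p 0.271 and 0.158), and it passed in replicates 2 and 3 only at 0.26 and 0.27 (adjusted p 0.0127 and 0.00788). MTERF2, of the family of mitochondrial transcription termination factors, was at 13.4 ± 1.75, 9.64 ± 0.551 and 8.18 ± 1.34 CPM (SD, n = 3). For Wnt1_KP6 against control it gave -0.71 ± 0.16 (edgeR adjusted p 0.0882), and by replicate number -0.58, -0.99 and -0.55. With replicates 2 and 3 only it gave -0.79 (edgeR adjusted p 0.000495). The mitochondrial mRNA with the smallest p, MT-ND1 of complex I, which has near-identical copies in the nuclear genome, was at 2812 ± 256, 3191 ± 384 and 3316 ± 214 CPM (SD, n = 3), and its differences did not pass the edgeR test, at an adjusted p of 0.637 for Wnt1 and 0.4 for Wnt1_KP6 against control. In replicates 2 and 3 only they passed, at 0.30 (adjusted p 0.00885) and 0.31 (adjusted p 0.00531). MT-ND4L passed there in the other direction, at -0.25 (edgeR adjusted p 0.0147) and -0.23 (edgeR adjusted p 0.0179). In each of these comparisons 1 of the 13 mitochondrial mRNAs passed higher and 1 lower (15.4%), beside 31.6% and 40.6% of all genes.

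**Figure D5:**
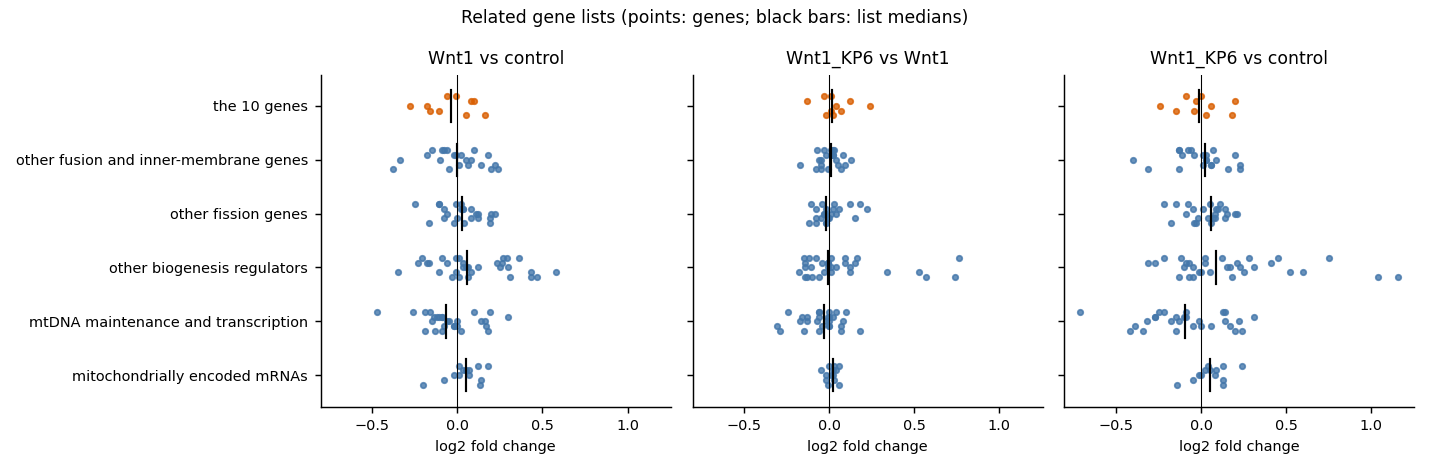
log2 fold change of the 10 genes (orange) and of the 119 tested genes of the 5 related lists (blue) in the 3 comparisons, 1 point per gene, with list medians as black bars. The list medians lie between -0.10 and 0.08, and MEF2D, at 1.04 for Wnt1_KP6 against control, is among the points farthest from 0.

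The genes closest in pattern to PPARGC1A and to OPA1 were taken among 10583 protein-coding genes of mean CPM of at least 5, by the root mean square difference of centred log2 CPM over the 9 libraries. For PPARGC1A, the most variable of the 10, these were ECT2 (0.079), COQ7 (0.082), CEMIP2 (0.087), SOCS5 (0.091) and DNAAF2 (0.093), where the median gene was at 0.28. ECT2 is a regulator of cytokinesis, and COQ7 is an enzyme of ubiquinone synthesis in mitochondria. Of these, 4 had their highest libraries in Wnt1_KP6 replicates 2 and 3, while for CEMIP2 control replicate 1 lay between them. ECT2 and COQ7 had their lowest in Wnt1_KP6 replicate 1, as PPARGC1A did. For OPA1 they included SOS1 (0.032), HDGFL3 (0.041), SRP9 (0.048) and INTS10 (0.049), with the median gene at 0.23. Each of these 4 was highest in control replicate 2, as OPA1 was. The 9 libraries share replicate numbers and depth, so this likeness is a description.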

How the data were processed

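RNA was extracted with Trizol, enriched on oligo(dT) beads and sequenced on an Illumina NovaSeq after a NEBNext Ultra kit, per the labels' protocols. The submitters' processing notes name fastp 0.18.0, Bowtie2 2.2.8, HISAT2, StringTie 1.3.1, RSEM and build hg38; none of the sources used here gives the role of each tool. The table deposited by the authors holds an expected count (an estimated count, whole in 87.6% of values) and an FPKM value, scaled to length and library size, of every gene in every library, per the file headers. Groups come from the treatment labels, replicate numbers from the titles.

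Expected counts were rounded and fitted with edgeR 4.0.16 (R 4.3.3) over all 9 libraries: filterByExpr (minimum count 10, minimum total 15), TMM, robust quasi-likelihood test, two-sided, Benjamini-Hochberg adjustment, threshold 0.05. SE is the log2 fold change over the root of F. Alternatives used DESeq2 1.42.0, and limma 3.58.1 on log2(FPKM + 1) and log2(FPKM + 0.1). The code was tested on simulated data. Of the gene identifiers, 20171 matched GENCODE 29, the source of coordinates. No pair of replicates agreed within sampling noise. Same-numbered libraries deviated together (correlations 0.11 to 0.67 over 9 pairs, all over the limit of 0.1 set for pairing). Differently numbered pairs without replicate 1 passed that limit too, so it cannot show that the numbers pair the samples. The main fit had no replicate block, so its SEs, intervals and p-values leave out any pairing by number. The block was fitted as an alternative. With it the SE of MFN1 for Wnt1 against control was 0.10, where the main fit had 0.16. Differently numbered libraries correlated at 0.15 to 0.40 without replicate 1 and at -0.55 to -0.22 with it, so the values set replicate 1 apart and do not separate 2 from 3.

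The 10 genes, the lists and the motifs were chosen with earlier results of these data known. All 10 genes are named; from each wider list, the genes called and the 2 with the smallest unadjusted p in each comparison could be named, and for the most variable gene and the one with the smallest p for Wnt1_KP6 against control, the 5 genes most like it. Not every gene so permitted is named, and 1 of those most like OPA1 is not reported here.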

Additional observations from a re-analysis of the deposited data

How the results depend on the processing

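The log2 fold changes of the 10 genes were recomputed in the 3 comparisons under 17 alternatives, 510 values in all, listed with earlier results of these data known. Of these, 3 passed the threshold, all with replicates 2 and 3 only, where 1 of 10 genes was called in each comparison; outside that setting the lowest adjusted p was 0.123. The other sign appeared in 55 values, of which 51 belong to main values under 0.1 in size. None of these passed, and the cause was not tested. With the replicate block no member call changed; OPA1 for Wnt1 against control was -0.27 (adjusted p 0.189).

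Sign changes for Wnt1 against control were as follows. With replicates 2 and 3 only MFN1 was 0.03, FIS1 -0.02, MFF 0.01 and TFAM 0.11, and TFAM was 0.04 in both limma fits. Leaving out each library in turn gave MFN1 -0.17 to 0.14, MFN2 -0.02 to 0.16, FIS1 -0.02 to 0.19, MFF -0.05 to 0.02 and TFAM -0.27 to 0.07.

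For Wnt1_KP6 against Wnt1, replicates 2 and 3 only gave MFN1 0.03 and MFF -0.01. The limma fits with pseudocounts 1 and 0.1 gave MFN1 0.03 and 0.04, DNM1L -0.06 and -0.06, and MFF -0.04 and -0.05. Leaving out each library gave MFN1 -0.09 to 0.08, DNM1L -0.02 to 0.07, FIS1 -0.09 to 0.03, MFF -0.02 to 0.06 and NRF1 -0.01 to 0.06.

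For Wnt1_KP6 against control, replicates 2 and 3 only gave MFN1 0.06, FIS1 -0.10 and TFAM 0.21. Both limma fits gave FIS1 -0.04 and TFAM 0.07, and MFF was 0.00 with no filter on low counts. Leaving out each library gave MFN1 -0.21 to 0.10, FIS1 -0.04 to 0.17, MFF -0.04 to 0.05, MIEF1 -0.13 to 0.01, PPARGC1A -0.06 to 0.25 and TFAM -0.19 to 0.14.

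Counts over all genes moved far more. For Wnt1 against control 16 genes became 285 in DESeq2, 95 with the replicate block, 9 with only the compared groups, 4115 in replicates 2 and 3 only, and 0 to 879 leaving out each library, over 1.5 times apart from the main count for any of the 9 and highest without control replicate 1. For Wnt1_KP6 against Wnt1 0 became 17 in DESeq2, 1124 in replicates 2 and 3 only and 214 without Wnt1_KP6 replicate 1. For Wnt1_KP6 against control 30 became 647, 149, 0 and 5293 in the first 4 settings, 11 and 19 in the limma fits, and 0 to 1198 leaving out each library, over 1.5 times apart for all but Wnt1 replicate 1 (43), with 1198 without control replicate 1 and 692 without Wnt1_KP6 replicate 1. Depth limits PPARGC1A most, at 155 to 283 counts per library.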
